A study of Mus musculus with 14 samples.

Results

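The family described here comprises 10 genes of unsaturated and long-chain fatty acid synthesis, the stearoyl-CoA desaturases *Scd1* and *Scd2*, the front-end desaturases *Fads1*, *Fads2* and *Fads3*, and the elongases *Elovl1*, *Elovl3*, *Elovl5*, *Elovl6* and *Elovl7*. They were chosen by name, and all 10 are listed among the 20550 genes of the deposited expression tables. Total RNA-seq was performed on mammary tissue from 2 mice on day 10 of lactation (L10), and the exon and the intron level of each gene were given per mouse. Both libraries carry the genotype WT_wTbrg4, which denotes one wild-type allele and one *Wap-Tbrg4* allele. On the latter, CRISPR-Cas9 was used in C57BL/6 zygotes to delete the sequence between *Wap* and *Tbrg4*, so that the mammary super-enhancer, the promoter and the start of the milk protein gene *Wap* drive *Tbrg4*, a gene expressed in many cell types. The deletion is carried in every cell of the mouse, whereas the *Wap* regulatory elements are active in secretory mammary epithelium. No RNA-seq library of another genotype or stage is analysed here, so genotype and lactation cannot be told apart in any value below and there are no groups to compare. A two-sided exact sign-flip permutation test over 2 mice cannot go below p = 0.5, and levels are therefore given for each mouse, as mean ± SD (n = 2), with no test.

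Milk fat of the mouse is assembled in the alveolar epithelium from fatty acids that the gland makes itself and from fatty acids taken up from blood. Desaturases are membrane enzymes of the endoplasmic reticulum that place a double bond into a fatty acyl-CoA, with electrons passed on by cytochrome b5 and its reductase. The SCD enzymes act on saturated chains and give oleate and palmitoleate. FADS2 and FADS1 alternate with elongases to convert the dietary essential fatty acids linoleate and alpha-linolenate to arachidonate and to the long omega-3 fatty acids. ELOVL enzymes catalyse the condensation that opens each round of elongation, and a reductase, a dehydratase and a second reductase complete the round. Each ELOVL enzyme prefers chains of a certain length and degree of saturation.

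Levels are given as FPKM, fragments per kilobase of exon or intron after scaling of each library by a total that is not given. It is a measure per length that allows genes to be set side by side. The milk protein markers of secretory epithelium summed to 401022 and 997641 exon FPKM in replicates 1 and 2, and the luminal epithelial markers to 322.5 and 198.8. Markers of white adipocytes, a cell type that uses several of the same enzymes, summed to 1349.2 and 1180.4 over 7 genes, none of which was at 0. Brown adipocyte markers summed to 5.8 and 4.0 with *Ucp1* at 0, and 3 of 5 sebaceous gland markers were at 0. The levels therefore come from mixed tissue, in which fewer cells of a type and less RNA per cell cannot be told apart, and the part of adipocytes in any of them was not tested. *Tbrg4*, the targeted gene, had 314.7 and 291.5 exon FPKM. The 10 highest genes held 79.5% of the summed exon FPKM in replicate 1 and 90.6% in replicate 2. From the spacing of low values in short genes, 1 fragment on 1 kb was worth about 0.1 FPKM in replicate 1 and 0.198 FPKM in replicate 2, so a given FPKM rested on about 1.98 times as many fragments in replicate 1.

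*Scd2* was among the most abundant transcripts of the tissue. The gene lies at chr19:44293676-44306864 on the plus strand of mm10 and has 6 exons. It encodes a delta-9 desaturase known from brain and from lipid synthesis in early life. Exons of *Scd2* reached 222.6 FPKM in replicate 1 and 235.1 in replicate 2 (229 ± 8.84, SD, n = 2). These levels rest on an estimated 12138 and 6475 exon fragments, and *Scd2* showed the closest agreement between the mice among the members above 1 FPKM when judged by the ratio of the mice as deposited. It ranked 98th of all genes by mean exon FPKM. Its intron level was 2.8 FPKM in both mice. Of the 32-base words in its exons, 94.7% occur once in the genome, and reads from the remainder could also stem from a relative. The miRNA gene *Mir5114* covers 61 bp of its exons on the same strand and cannot be separated from it.

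*Scd1* encodes the main delta-9 desaturase of liver, adipose tissue and mammary gland, and it was listed at 0 FPKM in exons and at 0 in introns in both mice. The gene lies at chr19:44394450-44407709 on the minus strand and carries 4837 bp of exons, of whose 32-base words 92.2% occur once in the genome. It is number 81 in an unbroken run of 137 minus-strand genes, 123 of them protein coding, that are all listed at 0 in exons and introns of both mice. The run extends from 25671134 to 60581023 on chromosome 19. Across all chromosomes and both strands, the next longest run of this kind holds 68 genes.

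The flanking minus-strand genes had values, with 2.2 and 1.9 exon FPKM for *Cbwd1* before the run and 11.1 and 16.9 for *Eif3a* after it. Of the 162 plus-strand genes within the same interval, 42 (25.9%) were at 0, and of the 182 minus-strand genes elsewhere on the chromosome, 32 (17.6%) were at 0. The run takes in genes that every cell uses, such as the respiratory chain genes *Ndufb8* and *Cox15*, the kinase gene *Chuk* and the dynactin gene *Actr1a*, all at 0. It also takes in *Gpam*, which starts triglyceride synthesis, the lysosomal lipase gene *Lipa* and the smooth muscle actin gene *Acta2*. These values give no level for *Scd1*, and no fold between *Scd1* and *Scd2* was formed. What caused the run was not tested.

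**Figure D1:**
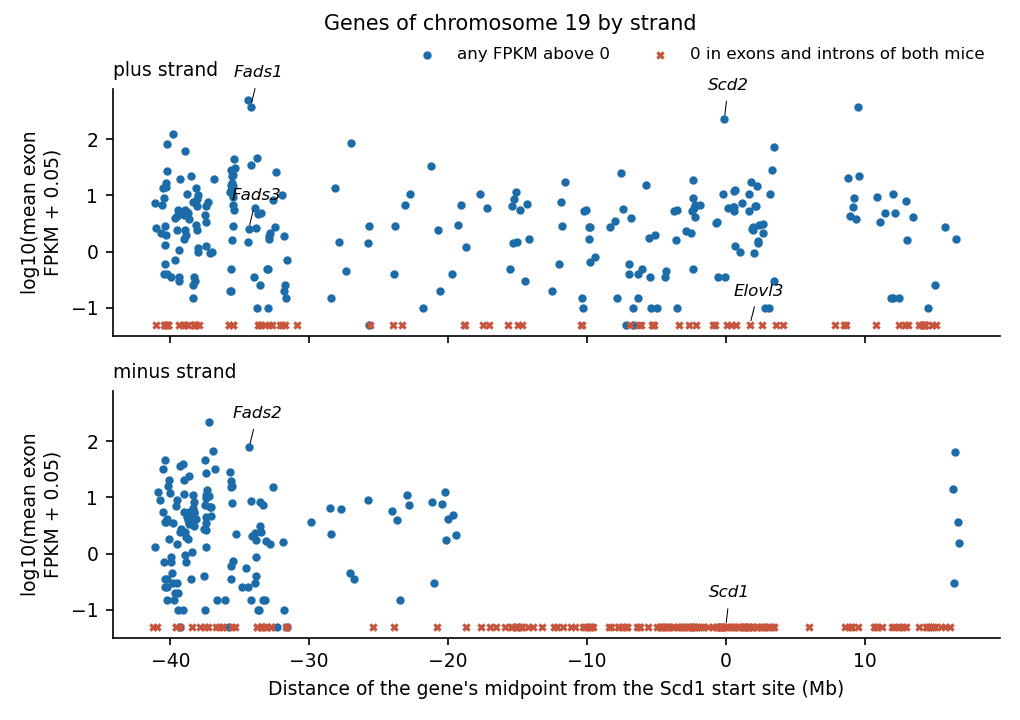
Mean exon FPKM of the 2 mice for the genes of chromosome 19, plus strand above and minus strand below, as log10(FPKM + 0.05) against the distance of each gene from the *Scd1* start site in megabases; circles mark genes with any value above 0 and crosses genes at 0 in exons and introns of both mice. On the minus strand the 137 genes around *Scd1* are all crosses, while *Scd2* on the plus strand lies among genes with values.

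*Elovl3*, an elongase of saturated and monounsaturated chains known from brown fat and sebaceous glands, was the second member listed at 0 in exons and introns of both mice. It lies on the plus strand at chr19:46131897-46135694, 1724187 bp from *Scd1*, where most neighbours on its strand had values. With 1 decimal, a level under 0.05 FPKM is written as 0. A total of 414 bp of its exons overlap *Pitx3* on the opposite strand. With these 2 of 10 members at 0, the share among all 20515 genes with a usable symbol was 29.6%, or 6068 genes.

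The FADS genes form a cluster on chromosome 19, in the order *Fads3*, *Fads2*, *Fads1*, and their levels spanned 2 orders of magnitude in the same sequence of steps in both mice, with *Fads1* above *Fads2* and *Fads2* above *Fads3*. *Fads1*, at chr19:10182877-10196874 on the plus strand, encodes the delta-5 desaturase that makes arachidonate. The exon level of *Fads1* was 254.0 FPKM in replicate 1 and 510.8 in replicate 2 (382 ± 182). Its intron level was 11.1 and 8.7 FPKM, the highest of the family in each mouse.

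*Fads2*, at chr19:10062765-10101503 on the minus strand, encodes the delta-6 desaturase that takes the first step on linoleate. Its exon level was 72.7 and 82.3 FPKM (77.5 ± 6.79) and its intron level 5.7 and 5.3. The minus strand of chromosome 19 had values here, outside the interval that holds *Scd1*. *Fads1* and *Fads2* are transcribed away from each other and are separated by 81373 bp.

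*Fads3*, at chr19:10040855-10060113 on the plus strand, encodes a desaturase that acts on the sphingoid base of ceramides. Exons of *Fads3* were at 2.7 and 2.3 FPKM (2.5 ± 0.283) and introns at 0.4 and 0.2. The exon values rest on an estimated 88.3 and 38.0 fragments. *Fads3* and *Fads2* run toward each other and are only 2651 bp apart, although *Fads2* was 26.9 and 35.8 times as high in exons.

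RefSeq gives a start-site window for *Fads2* and *Fads3*, and these are printed because the pair are close neighbours with very different levels. Each stretch holds 250 bases before and 20 after the RefSeq start site on GRCm38.p6, read 5′ to 3′ on the strand of the gene. *Fads2* is from chr19:10101484-10101753 on the minus strand and *Fads3* from chr19:10041298-10041567 on the plus strand. Capitals mark GGGCGG (the GC box bound by SP1) and CCAAT (the box bound by NF-Y), each on either strand.
Fads2: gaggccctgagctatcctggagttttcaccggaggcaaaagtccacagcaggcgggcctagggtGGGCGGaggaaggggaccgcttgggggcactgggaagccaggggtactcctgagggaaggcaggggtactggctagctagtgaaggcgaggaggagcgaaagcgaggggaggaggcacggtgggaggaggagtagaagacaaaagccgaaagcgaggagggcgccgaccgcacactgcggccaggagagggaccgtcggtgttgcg
Fads3: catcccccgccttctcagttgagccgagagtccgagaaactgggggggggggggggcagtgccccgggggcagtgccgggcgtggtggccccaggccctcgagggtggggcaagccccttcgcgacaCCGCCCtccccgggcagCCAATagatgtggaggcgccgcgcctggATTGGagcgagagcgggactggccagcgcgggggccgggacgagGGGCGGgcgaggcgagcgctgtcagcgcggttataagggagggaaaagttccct
*Fads2* holds 1 GC box at -186 to -181, and *Fads3* holds 2 GC boxes and 2 CCAAT boxes, the nearer CCAAT box at -78 to -74. GC content of the 300-base windows was 67.0% and 73.0%. Among all 32851 such windows in the table, 35.7% contain a GC box and 37.4% a CCAAT box.

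The elongases were led by *Elovl5*, which had the highest mean exon level of the family. *Elovl5*, at chr9:77917365-77984519 on the plus strand, elongates polyunsaturated chains between the FADS steps. Exons of *Elovl5* reached 252.4 FPKM in replicate 1 and 635.5 in replicate 2 (444 ± 271). Its intron level went the other way, with 7.2 and 5.0 FPKM. No exon base overlaps another gene, and 100% of its 32-base words occur once in the genome.

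*Elovl1*, at chr4:118426874-118432953 on the plus strand, makes saturated and monounsaturated very-long-chain fatty acids for sphingolipids. Its exon level was 65.9 and 94.5 FPKM (80.2 ± 20.2) and its intron level 4.3 and 3.0. The opposite-strand gene *Cdc20* covers 53 bp of its exons.

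The start-site stretches of *Elovl5* and *Elovl1* are printed because both are elongases with a higher exon and a lower intron level in replicate 2 as deposited. Both mice have the same genotype, and any part of these sequences in that difference was not tested. They cover chr9:77917115-77917384 and chr4:118427843-118428112 on the plus strand, with the same 250 and 20 bases around the start site. Capitals again mark GC and CCAAT boxes on either strand, and in *Elovl5* also TGACGTCA, the cAMP response element (CRE) to which CREB binds. In *Elovl1*, a GC box and a CCAAT box share 2 bases at -35 and -34.
Elovl5: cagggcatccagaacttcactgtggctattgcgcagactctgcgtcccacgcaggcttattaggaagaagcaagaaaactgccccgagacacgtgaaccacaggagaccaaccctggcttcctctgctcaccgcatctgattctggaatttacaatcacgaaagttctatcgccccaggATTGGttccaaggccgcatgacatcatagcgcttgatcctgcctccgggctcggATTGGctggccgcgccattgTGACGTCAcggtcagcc
Elovl1: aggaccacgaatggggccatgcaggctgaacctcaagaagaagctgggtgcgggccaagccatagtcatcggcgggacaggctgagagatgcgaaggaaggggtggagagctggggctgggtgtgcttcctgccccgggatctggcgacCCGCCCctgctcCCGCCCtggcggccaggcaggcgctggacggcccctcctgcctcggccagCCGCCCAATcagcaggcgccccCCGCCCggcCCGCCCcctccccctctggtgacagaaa
*Elovl5* holds the CRE at +4 to +11, a motif found in 1.79% of all windows, and 2 CCAAT boxes at -71 to -67 and -17 to -13. *Elovl1* holds 5 GC boxes and 1 CCAAT box in this window. RefSeq gives *Elovl1* a second start site, whose window holds 2 GC boxes. In all, 6 of the 10 members matched the table with 7 windows. The other windows, of *Elovl6* and *Elovl7*, held no searched motif and 3 GC boxes, respectively. Neither the STAT5 motif TTCNNNGAA, in 8.30% of all windows, nor TATAAA, in 13.6%, nor a consensus sterol regulatory element, in 0.0913%, was found in any of the 7. A match is a string of letters and does not show binding.

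*Elovl6*, at chr3:129532386-129638495 on the plus strand, takes palmitate to stearate, and its product is the substrate of the SCD enzymes. The exon level of *Elovl6* was 14.7 and 26.3 FPKM (20.5 ± 8.20), and its intron level was 0.3 FPKM in both mice over 100159 bp of introns. Of its 32-base exon words 86.0% occur once in the genome, the lowest share of the 10 members.

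*Elovl7*, at chr13:108214326-108287109 on the plus strand, elongates saturated very-long-chain acyl-CoA. Its exon level was 4.2 and 8.1 FPKM (6.15 ± 2.76), and its intron level was 0.1 FPKM, the smallest value above 0 that the tables can hold, in both mice.

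**Figure D2:**
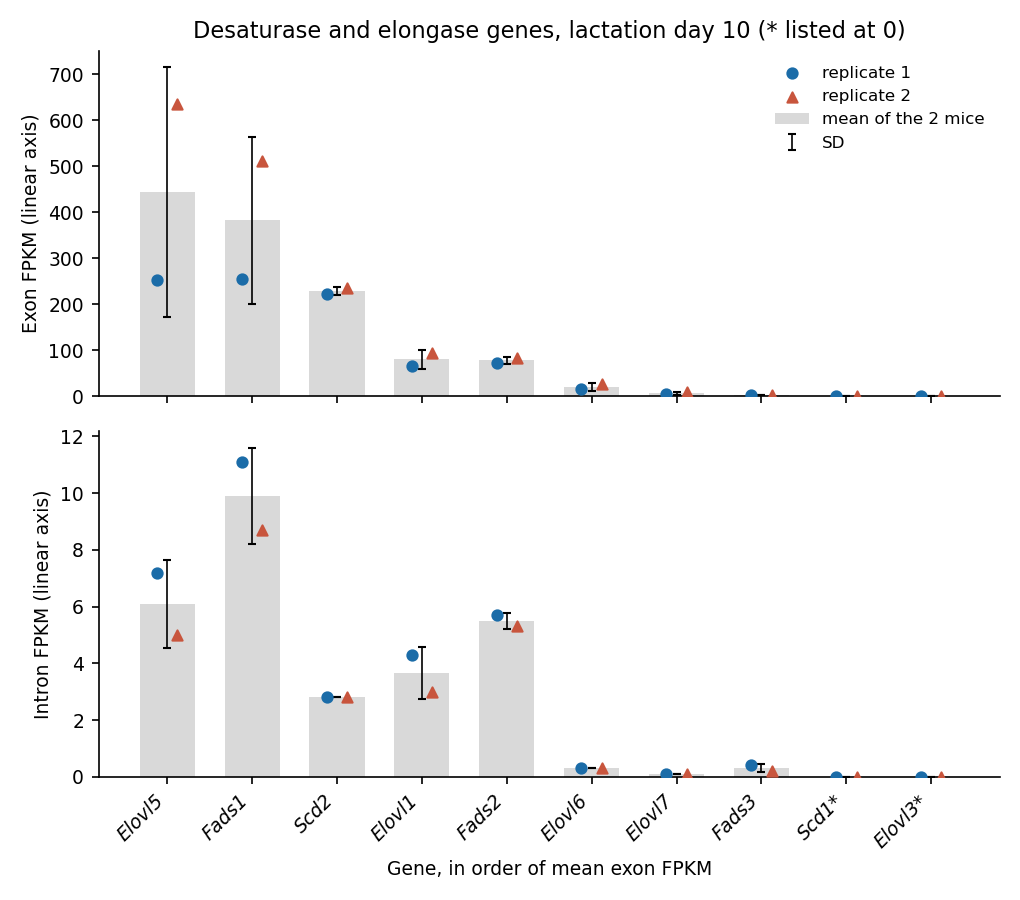
Exon FPKM (upper panel) and intron FPKM (lower panel) of the 10 desaturase and elongase genes on linear axes, with bars for the mean of the 2 mice, error bars for the SD, circles for replicate 1 and triangles for replicate 2; asterisks mark genes listed at 0. *Elovl5* and *Fads1* lead in exons with wide gaps between the mice, and *Fads1* leads in introns.

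Ordered by mean exon FPKM, the members ran *Elovl5*, *Fads1*, *Scd2*, *Elovl1*, *Fads2*, *Elovl6*, *Elovl7* and *Fads3*. Of the 7 neighbouring pairs in this order, 5 had ranges over the 2 mice that did not overlap. The other 2 pairs were *Elovl5* with *Fads1* and *Elovl1* with *Fads2*, and in each of them the order differed between the mice. In replicate 1 *Fads1* was the highest member and *Elovl5* the second, and in replicate 2 they changed places. Among the 9845 genes whose exon FPKM averaged 1 or more, the 5 highest members stood between percentile 97.1 (*Fads2*) and 99.5 (*Elovl5*). *Elovl6* stood at percentile 85.1, *Elovl7* at 52.3 and *Fads3* at 22.2.

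Ratios of exon FPKM within a mouse do not depend on how the mice were scaled. They were not corrected for the GC content of exons, with which the ratio of the mice moved (below). Exon GC content was 44.8% in *Elovl5* and 53.0% in *Elovl1*, and 52.2% in *Fads1* and 53.6% in *Fads2*. *Fads2* stood at 0.286 of *Fads1* in replicate 1 and 0.161 in replicate 2 (0.224 ± 0.0885). In introns the same ratio was 0.514 and 0.609, so the pair lay closer together in intron than in exon signal. *Elovl1* stood at 0.261 and 0.149 of *Elovl5* in exons (0.205 ± 0.0795) and at 0.597 and 0.6 in introns, which is the same pattern.

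*Elovl5* was 17.2 and 24.2 times as high as *Elovl6* in exons (20.7 ± 4.95). In introns the ratio of this pair was 24 and 16.7, the reverse order of the mice, and it rests on 0.3 FPKM for *Elovl6*, given with 1 decimal. *Elovl6* was 3.50 and 3.25 times as high as *Elovl7* (3.37 ± 0.179), the most stable of the ratios relative to its mean. Of the summed exon FPKM of the 3 FADS genes, *Fads1* held 77.1% and 85.8%. *Elovl5* held 74.9% and 83.1% of the sum of the 5 elongases.

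The 2 mice have the same genotype, and the difference between them is the replicate error of the levels above. Of the 10 members, 8 averaged 1 exon FPKM or more. Of these, *Elovl5* and *Fads1* were more than 2-fold apart on the scale of FPKM + 1, compared with 581 of 9845 genes (5.9%). Both were higher in replicate 2, a direction shared by 106 genes (1.08%). The log2 ratio of replicate 2 to replicate 1 was 1.33 for *Elovl5*, with a counting error (SE) of 0.023, and 1.01 for *Fads1*, with an SE of 0.0217, so *Fads1* lay just over the 2-fold limit. *Elovl7* (0.81) and *Elovl6* (0.80) lay just inside it.

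The remaining log2 ratios were 0.51 for *Elovl1*, 0.18 for *Fads2*, 0.08 for *Scd2* and -0.17 for *Fads3*, the last with an SE of 0.28. As deposited, 7 of the 8 members were thus higher in replicate 2, compared with 42.5% of all genes, and their median log2 ratio was 0.66 against -0.08 over all genes. When each mouse was scaled to the same summed exon FPKM, *Elovl5* alone among the 8 was higher in replicate 2 (0.26), as were 2.22% of all genes, and *Fads1* turned to -0.0598, while the median of all genes moved to -0.90. Under both scalings 7 of the 8 lay above the median of all genes. As deposited, the secretory markers *Csn2*, *Csn3* and *Csn1s1* were more than 2-fold higher in replicate 2, whereas *Wap* (0.44), *Glycam1* (0.29) and *Lalba* (-0.03) were within 2-fold. Among the 4 luminal epithelial markers, *Krt8* (-1.05) and *Krt18* (-1.32) were more than 2-fold lower. *Epcam* was at -0.26 and *Cdh1* went the other way at 0.25, and the list had a median of -0.66. Of 7 white adipocyte markers, 4 were higher and 3 lower, with a median of 0.08 and *Plin1* (-1.29) alone beyond 2-fold. The part of these cell types in the difference was not tested.

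The ratio of the mice also moved with base composition. Across 9725 genes, the log2 ratio was lower at higher exon GC content, with a Spearman's rho of -0.66. This relation is across genes, which share the 2 libraries and are not independent replicates. Exon GC content of the 8 members ranged from 41.3% in *Elovl7* to 53.7% in *Fads3*, around a median of 50.2% over all genes. After a smooth fit to GC content was subtracted, *Elovl5* kept a log2 ratio of 1.15 and *Fads1* one of 1.19, while *Elovl7* was at 0.49 and *Elovl6* at 0.59. *Fads3* turned from -0.17 to 0.12, and all 8 members then had positive values with a median of 0.54, a sign shared by 50.1% of all genes. Over all genes, 186 were more than 2-fold apart after this correction, of which 120 were also among the 581 before it. Of the cell type markers named above as beyond 2-fold, *Csn2* (1.87), *Csn3* (1.52) and *Csn1s1* (1.41) remained so. *Krt8* (-0.53), *Krt18* (-0.84) and *Plin1* (-0.46) did not.

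**Figure D3:**
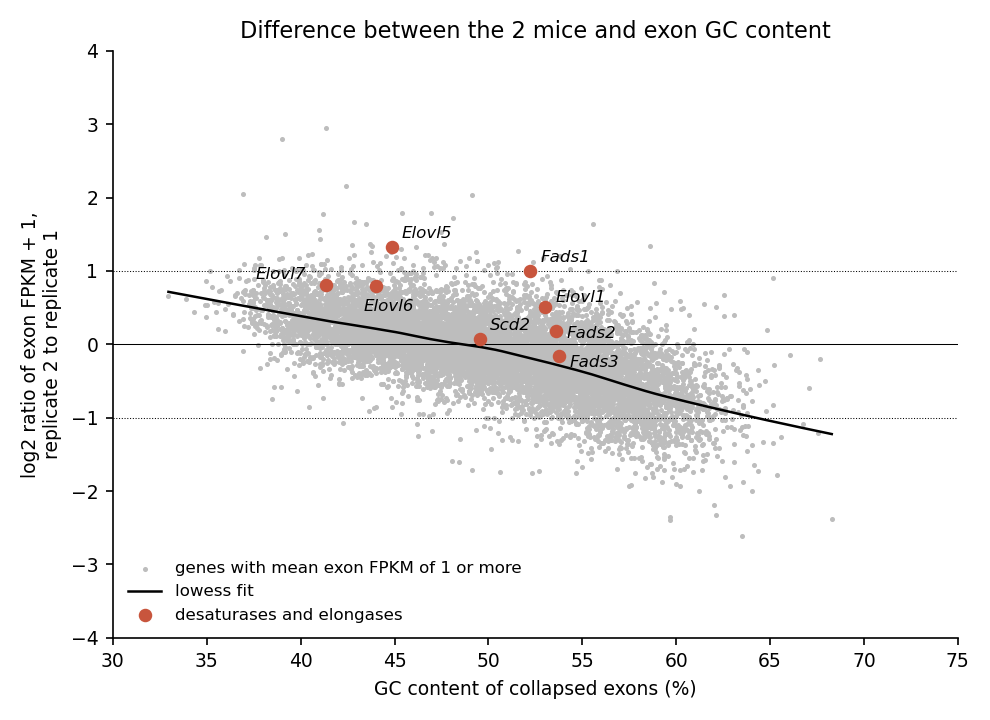
log2 ratio of exon FPKM + 1 of replicate 2 to replicate 1 against the GC content of exons in percent, for all genes that averaged 1 exon FPKM or more (grey, 1 gene outside the axes) and the 8 desaturases and elongases above that level (red); the black line is the lowess fit and dotted lines mark 2-fold. All 8 members lie above the fitted line, with *Elovl5* and *Fads1* farthest from it.

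Intron reads in total RNA come largely from transcripts that are not yet spliced. As deposited, no member had a higher intron level in replicate 2, 5 were lower and 3 had the same value in both mice. Among 9140 genes with exon and intron values in both, introns were lower in replicate 2 in 33.2%, the same in 30.2% and higher in 36.6%. Exons were higher and introns lower in replicate 2, as deposited, in 4 members, *Fads1*, *Fads2*, *Elovl1* and *Elovl5*. This combination was shown by 829 of the 9140 genes (9.07%). The direction of each change depends on the scaling of the mice. At equal summed exon FPKM, the exon log2 ratio was -0.0598 for *Fads1*, -0.87 for *Fads2*, -0.54 for *Elovl1* and 0.26 for *Elovl5*. The exon level of *Elovl5* was 35.1 times its intron level in replicate 1 and 127 times in replicate 2. For *Fads1* these folds were 22.9 and 58.7. The folds within a mouse do not depend on its scaling, since exons and introns had nearly the same worth per fragment (0.198 and 0.202 FPKM on 1 kb in replicate 2).

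*Scd2* showed no such shift, with an exon level 79.5 and 84.0 times its intron level. *Fads2* had the smallest folds of the abundant members, 12.8 and 15.5. The log2 ratio of intron to exon FPKM was ranked over 3020 genes that averaged 10 exon FPKM or more and had intron signal in both mice, whose median was -4.81. *Scd2* fell at percentile 11.2 of this ranking, *Elovl5* at 15.5, *Elovl6* at 16.03, *Fads1* at 36.7, *Elovl1* at 63.4 and *Fads2* at 82.5. The 6 members thus spread over most of the range, with a median of -5.62.

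The remaining genes of the pathway were taken from lists of 49 genes, of which 41 averaged 1 exon FPKM or more. Between the mice, 5 of the 41 were more than 2-fold apart, 2 higher and 3 lower in replicate 2, against the 5.9% of all genes. Of the other desaturases and elongases, *Degs1* and *Scd3* were highest, with means of 14.7 and 10.35 exon FPKM. These means were below that of *Elovl6* (20.5) and above those of *Elovl7* (6.15) and *Fads3* (2.5). *Scd3*, a neighbour of *Scd2* known from skin and Harderian gland, had 11.4 and 9.3 exon FPKM, but it lies within *Pkd2l1* on the opposite strand and 83.4% of its 32-base words occur once. The ceramide desaturase gene *Degs1* had 11.6 and 17.8, *Fads6* 2.5 and 0.9, and *Degs2* was at 0 in both mice. *Scd4*, *Elovl2* and *Elovl4* did not exceed 0.4 FPKM in either mouse. *Elovl2* encodes the elongase that acts beyond *Elovl5* on the way to docosahexaenoate.

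The other steps of the elongation cycle were all represented. The ketoacyl reductase gene *Hsd17b12* had 29.9 and 69.5 exon FPKM, and it was more than 2-fold higher in replicate 2, like *Elovl5*. Among the dehydratases, *Hacd3* was highest with 23.8 and 30.7, and *Hacd2* was also more than 2-fold higher in replicate 2 with 2.7 and 8.1. Both differences stayed over 2-fold after the GC correction. They depend on the scaling of the mice, as does that of *Elovl5*, which fell to a log2 ratio of 0.26 at equal summed exon FPKM. The enoyl reductase gene *Tecr*, which completes the cycle, had 51.4 and 49.0, and its relative *Tecrl* was at 0. Of the electron donors of the desaturases, the cytochrome gene *Cyb5a* had 67.2 and 101.3 and *Cyb5b* 73.6 and 77.4. The reductase gene *Cyb5r3* had 41.9 and 19.1 and was more than 2-fold lower in replicate 2 but not after the GC correction. Its relatives were low, with 6.6 and 5.6 for *Cyb5r1*, 1.8 and 2.5 for *Cyb5r4* and 0 for *Cyb5r2*.

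Among the genes of fatty acid synthesis and activation, *Acsl1* and *Olah* were above every member in both mice. *Acsl1*, which activates long-chain fatty acids to acyl-CoA, had 731.1 and 956.7 exon FPKM, while the next acyl-CoA synthetase, *Acsl4*, had 31.3 and 35.4. In the synthesis of palmitate, *Fasn* had 718.9 and 616.3 and *Acly* 488.5 and 466.8. *Olah*, the thioesterase that ends chain growth early to give medium-chain fatty acids of milk, had 855.7 and 1133.2. *Acacb* had 170.4 and 92.3 and *Acaca* 103.8 and 100.8, below *Elovl5*, *Fads1* and *Scd2* in both mice. None of the 9 synthetases that averaged 1 FPKM or more was more than 2-fold apart between the mice. The same held for *Acly*, *Acaca*, *Acacb*, *Fasn* and *Olah*, against 5.9% of all genes beyond that limit.

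Transcriptional regulators of the family were all above 1 FPKM (14 of 14). *Thrsp*, a lipogenic nuclear protein gene, was highest with 1498.7 and 925.3 exon FPKM, followed by the sterol sensor gene *Insig1* with 171.4 and 186.8. *Srebf1*, which encodes the transcription factor that activates desaturase genes, had 68.3 and 30.4, and *Nr1h2*, encoding a liver X receptor, 8.9 and 3.6. These 2 were more than 2-fold lower in replicate 2, the opposite direction to *Elovl5* and *Fads1*, and neither remained so after the GC correction. With 2 mice no relation between the regulators and the family can be tested.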

How the data were processed

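Total RNA-seq of 2 L10 mammary glands was used, and 12 ChIP-seq samples of the series were assigned to their groups but not analysed here. The authors prepared stranded libraries, sequenced them on a HiSeq system, aligned the reads to mm10 by STAR, merged the exons of all transcripts of a UCSC known gene, counted on exons and introns with HTSeq and generated FPKM with DESeq2. The deposited FPKM have 1 decimal. Tool versions, the handling of multiply mapped reads and the scaling total are not given in the sources used here. Read totals are not given, so depth per sample is unknown apart from the estimated worth of 1 fragment, which covers counting error only.

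The members and all gene lists were chosen with earlier results of these data known. Symbols that were blank, numeric or repeated were left out (35). Replicates were compared as log2 of FPKM + 1 over genes that averaged 1 exon FPKM or more. Whether the 2 replicates differ beyond technical spread cannot be seen from the labels, which give replicate numbers only. Positions, lengths and GC content came from curated RefSeq transcripts on GRCm38.p6, which is mm10, and promoters and their start sites from RefSeq on that build. UCSC exons may differ from these. GC content was fitted by lowess over a fraction of 0.3 of the genes. The worth of 1 fragment was estimated from genes with 150 to 800 bp of exons or introns. The fit and this estimate were tested on simulated data. The simulation used steps close to those found and the same RefSeq lengths, so it could not test a mismatch with UCSC lengths. In the real exon values the spacing was less clear in replicate 1, with a mean cosine of 0.30 against 0.70 in replicate 2 (1 is a perfect fit). Estimated fragments and counting errors rest on these fits. Text names the members, the 2 to 4 highest genes of each pathway list, those listed at 0 in both mice, and genes more than 2-fold apart or needed to describe the interval around *Scd1*, the last 2 chosen after their values were seen. Alternatives were another scaling, mean, pseudocount and filter, GC correction and leaving out each mouse, and 2 scalings of the comparison between mice were added after the data were seen. Python 3.11.15 was used with pandas 2.3.3 and numpy 2.4.6 for tables, statsmodels 0.14.6 for the fit and matplotlib 3.10.9 for plots.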

Additional observations from a re-analysis of the deposited data

How the results depend on the processing

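Of 206 recomputed values, 182 kept their direction and moved by less than the SD of the 2 mice, stayed on the same side of the 2-fold limit or, for counts, stayed within 1.5-fold. The 182 include every value with 1 mouse left out and every log2 ratio of a single gene under another filter. These were bound to stay, so the share of 182 overstates how stable the results are. No paired analysis was possible because both libraries belong to 1 genotype and there is no second group to pair them with. Taking introns in place of exons moved the ratio of *Fads2* to *Fads1* to 0.561, of *Fads2* to *Fads3* to 20.4, of *Elovl1* to *Elovl5* to 0.599 and of *Elovl6* to *Elovl7* to 3. Adding 1 FPKM to both genes moved *Fads2* to *Fads3* to 22.6 and *Elovl6* to *Elovl7* to 3.01. The count of genes over the 2-fold limit was 1092 with a pseudocount of 0.1, 186 after GC correction, 231 at a mean of at least 10 FPKM and 4193 when each mouse was scaled to a summed exon FPKM of 1000000. Under that last scaling, chosen after seeing the data, 0 members were more than 2-fold apart, *Elovl5* fell to 0.26 and *Fads1* reversed to -0.0598 (log2 ratios). Scaling to equal sums outside the 10 highest genes instead kept *Elovl5* at 1.38 and *Fads1* at 1.06. The scaling to 1000000 also moved the mean exon FPKM of *Scd2* to 196.2 and of *Fads2* to 65.6. With 1 mouse left out, a mean equals the other mouse and stays within the SD by construction, which says nothing about the spread between further mice. Estimated intron fragments were as few as 59.4 and 14.7 for *Fads3* and 67.3 and 33.3 for *Elovl7*, and intron values of 0.1 to 0.4 FPKM are also limited by rounding to 1 decimal.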
